A study of Rattus norvegicus with 36 samples.

Results

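The complement genes C1qa, C1qc, C1r, C1s, C2, C4a, C6, Cfi, Cfp and C5ar1 were followed in dorsal root ganglia of rats after ligation of the L5 spinal nerve. Members were chosen by symbol, with earlier results of these data known. They are every probe set on the 3 chip types (A, B and C) whose platform annotation names one of these 10 genes and no other gene. This gave 10 of 10970 genes named alone by a probe set, and 18 of 26202 probe sets that are not controls. Of these 18, 12 were bright enough to be tested among 15721 probe sets, with at least 1 for each of the 10 genes, and the other 6 were too dim. In ligated L5 ganglia the tested C2 probe set was above sham at both 28 and 50 days. It passed the test over both days, and that call was lost in several alternative settings. A second C2 probe set, too dim to be tested, differed less from sham (0.31 at 28 days and 0.20 at 50 days, log2). C1qa, C1r, C1s and 1 of the 2 tested C1qc probe sets were far above sham at 28 days, and at 50 days they stood between 0.06 below and 0.52 above sham on the log2 scale.

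Complement is a cascade of plasma and tissue proteins that marks cells and debris for uptake. In the classical pathway C1q binds a target and activates the proteases C1r and C1s, which cut C4 and C2 into the enzyme that cleaves C3. Later steps release C5a, which acts on the receptor C5ar1, and assemble C6 and its partners into a membrane pore, while factor I (Cfi) inactivates and properdin (Cfp) stabilises C3-cleaving enzymes. In nervous tissue C1q is made largely by macrophages and microglia.

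Total RNA came from 6 pools of ganglia: L5 ganglia of rats with a ligated L5 spinal nerve, the neighbouring L4 ganglia of rats with the same ligation, and ganglia of sham-operated rats, each at 28 and at 50 days. A sham pool held L4 and L5 ganglia together, so normal differences between the levels are part of each comparison with sham. A pool was made from 30 rats where a number is given, and strain, sex and age are not given in the labels used here. Each pool was put on 2 technical arrays of each chip type. Per the design text there are no biological replicates on the arrays because of the pooling, so the pools of the 2 days served as replicates. With a day term in the fit, p-values rest on how far the differences between conditions disagree between the 2 days. Part of the spread is borrowed from other probe sets. A difference present at a single day thus counts as spread.

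Signals are intensities on a linear scale, scaled by the authors to a common mean of an array, and every difference below is on the scale of log2(signal + pseudocount), which understates the change of dim genes. Within a pool, both technical arrays correlated at 0.880 to 0.958 (Pearson) across tested probe sets. Markers of sensory neurons were bright in every pool: all 14 of the list were tested, and their summed signal was 36804 to 39045 in L5 at 28 days, against 42121 to 48196 in sham at 28 days, and 42845 to 44499 in L5 at 50 days, against 45951 to 55237 in sham at 50 days. Their median L5 minus sham difference was -0.60 at 28 days and -0.43 at 50 days, and 2 of the 14, Scn10a and Scn11a, were called lower in L5. In L4 the sum was 37699 to 46986 at 28 days and 41834 to 51065 at 50 days. One array of chip B, which carries the tested probe sets of C1qa, C2, C6 and Cfi, is titled sham at 28 days but described as 50 days. It was placed by its title, and its correlation was 0.952 with the other array of sham at 28 days, against 0.932 and 0.928 with the arrays of sham at 50 days. Without it the fitted L5 minus sham difference was 2.20 for C2, 0.89 for C1qa, 0.47 for C6 and 0.45 for Cfi, against 1.92, 0.86, 0.36 and 0.34 with it.

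C2, the protease that joins C4 in the classical pathway enzyme, was the member that passed the test, and it was higher in L5 than in sham at both days. Its signals were 153 and 212 in L5 at 28 days, against 65.1 and 20.4 in sham at 28 days. They were 157 and 197 in L5 at 50 days, against 39.7 and 21.5 in sham at 50 days. Every L5 array lay above every sham array. In the neighbouring L4 ganglia C2 gave 69.6 and 80.0 at 28 days and 94.4 and 58.7 at 50 days. These L4 arrays lay below the L5 arrays and above the sham arrays of their day. The sham arrays of 28 days differed most: their ratio of 3.19 was the largest among the 72 array pairs of tested members and pools, where the median ratio was 1.22. The brighter of them, at 65.1, is the array with conflicting labels.

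In the limma fit over both days (n = 2 pools per condition) C2 was higher in L5 than in sham by 1.92 ± 0.23 (SE; 95% confidence interval 1.40 to 2.45), which is 3.80-fold. The limma adjusted p was 0.0175, and C2 stood 16th when the 15721 probe sets were ranked by unadjusted p. Without the sham pool of 28 days the difference was 2.04 (limma adjusted p = 0.101) and without that of 50 days 1.81 (limma adjusted p = 0.0940), and in both fits the lone sham pool is assumed to vary like the other groups. The size of the difference stayed close to that of all pools. From array 1 of the pools alone the difference was 1.33 (limma adjusted p = 0.222), and from array 2 alone 2.52 (limma adjusted p = 0.0786). A second C2 probe set, on chip C, was too dim to be tested. It had 62.0 and 49.0 in L5 at 28 days, against 68.7 and 21.5 in sham at 28 days, and these overlap. At 50 days it had 44.6 and 43.8 in L5, against 33.0 and 38.5 in sham.

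**Figure D1:**
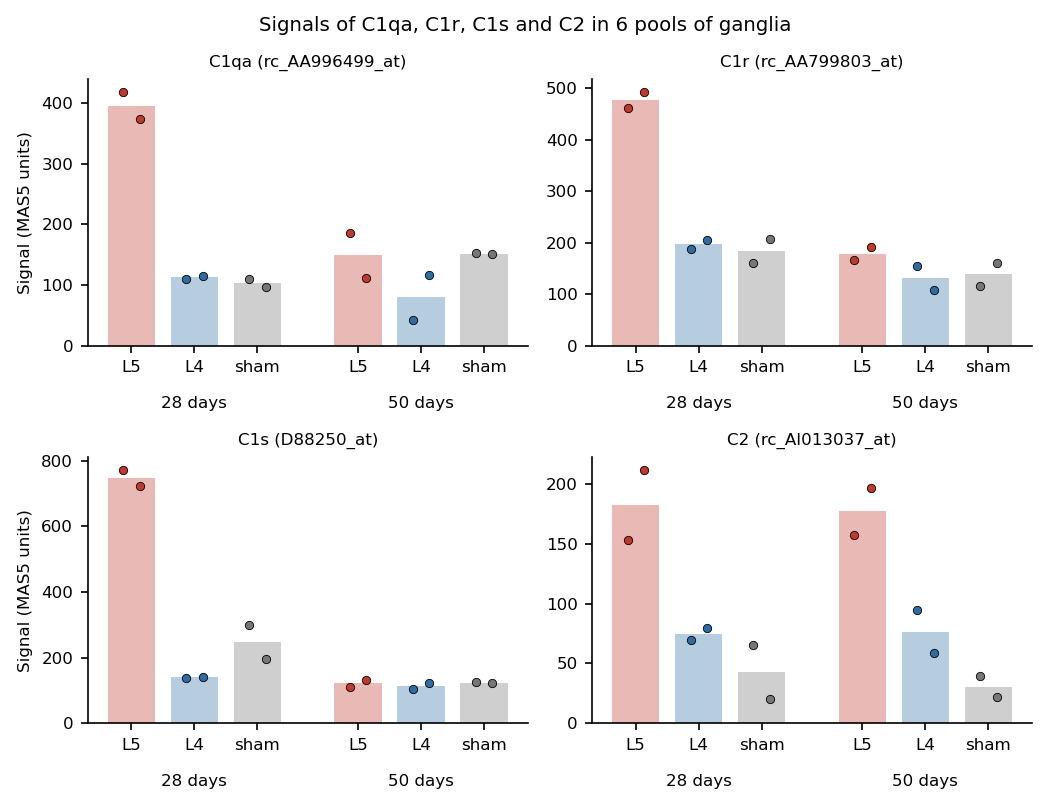
Signal of C1qa, C1r, C1s and C2 in each pool (y axis, MAS5 units, linear from 0), by condition and day (x axis). Points are the 2 technical arrays and bars their mean. C1qa, C1r and C1s stand highest in L5 at 28 days (374 to 418, 462 to 492 and 722 to 773), while C2 is high in L5 at both days (153 to 212).

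C1qa, one of the 3 chains of C1q, was high in L5 at 28 days and not at 50 days. Its signals were 418 and 374 in L5 at 28 days, against 109.7 and 97.0 in sham at 28 days, a difference of 1.77 with no overlap. In L5 at 50 days they were 186 and 112, against 152 and 152 in sham at 50 days, which overlap (-0.06). L4 ganglia had 111 and 115 at 28 days and 42.6 and 117 at 50 days. In the fit over both days C1qa was higher in L5 than in sham by 0.86 ± 0.36 (limma adjusted p = 0.278), which did not pass. At a single day there is 1 pool per condition, so the values of a day carry no test.

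The 2 tested probe sets of C1qc, the C chain of the same protein, disagreed. On rc_AI177119_at the signals were 174.5 and 147 in L5 at 28 days, against 11.5 and 14.1 in sham at 28 days (2.45). At 50 days they were 98.7 and 117 in L5, against 87.4 and 53.0 in sham (0.52). The L5 arrays lay above the sham arrays at both days, and the low value was that of the sham pool of 28 days, since L4 had 75.3 and 72.0 at 28 days and 59.5 and 74.4 at 50 days. The fitted difference from sham was 1.49 ± 0.42 in L5 (limma adjusted p = 0.126), and 0.62 without the sham pool of 28 days. This probe set passed the brightness filter through its L5 pools: its mean over the L4 and sham arrays was 55.9, under the 58.8 that chip C required. On the brighter rc_AA891576_s_at, L5 at 28 days had 96.7 and 164, against 96.2 and 151 in sham at 28 days (0.06). At 50 days L5 had 253 and 178 there, against 161 and 162 in sham (0.37). L4 had 123 and 138 at 28 days and 162 and 133 at 50 days on this probe set. Its fitted difference from sham in L5 was 0.21 ± 0.24 (limma adjusted p = 0.677). Over the 6 pools the C1qc probe sets correlated at r = 0.36 with each other, and with C1qa at r = 0.65 for rc_AI177119_at and -0.09 for rc_AA891576_s_at. The 2 further C1qc probe sets, with mean signals of 7.81 and 3.63, were too dim to be tested.

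C1r, the protease that C1q activates first, had 462 and 492 in L5 at 28 days, against 161 and 206 in sham at 28 days (1.33). In L5 at 50 days C1r had 167 and 191, against 117 and 160.0 in sham (0.36). The L5 arrays were above the sham arrays at both days, by a smaller margin at 50 days. L4 had 188 and 206 at 28 days and 155 and 108 at 50 days, overlapping sham at both. C1s, the protease that C1r activates and that cuts C4 and C2, had 773 and 722 in L5 at 28 days, against 298 and 195 in sham at 28 days (1.58). In L5 at 50 days C1s had 110.2 and 132, against 124 and 123 in sham (-0.03), and these overlap. In L4 it had 139 and 142 at 28 days, below both sham arrays of that day, and 104 and 124 at 50 days.

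In the fit C1r was higher in L5 than in sham by 0.84 ± 0.26 (limma adjusted p = 0.142) and C1s by 0.78 ± 0.40 (limma adjusted p = 0.348), and neither passed. Both fits average a large difference at 28 days and a small one at 50 days. Without the L5 pool of 50 days the differences were 1.29 for C1r (limma adjusted p = 0.00120) and 1.73 for C1s (limma adjusted p = 9.81e-07), and without that of 28 days they were 0.40 for C1r and -0.18 for C1s. In these fits the lone L5 pool is assumed to vary like the other groups, so the p-values leave out the spread between L5 pools. Leaving out an L4 pool, which leaves the difference as it is, gave C1r a limma adjusted p of 0.0312 (28 days) or 0.0256 (50 days) and C1s one of 0.0508 or 0.0468. C1r and C1s correlated at r = 0.94 over the 6 pools, C1qa and C1r at 0.88, and C1qa and C1s at 0.82. The first 2 values are among the highest of the 66 pairs of tested probe sets. The points of C1qa, C1r and C1s share the RNA pools, and L5 at 28 days is the highest point of all 3 genes.

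C1r and C1s are neighbours on rat chromosome 4 and C1qa and C1qc on chromosome 5, with 0 protein-coding genes between them in the RefSeq table of assembly GRCr8. C2 and C4a lie on chromosome 20 with 5 genes between them, Cfb among these. RefSeq promoter sequence was at hand for C1qa, C1r, C4a, C6, Cfi and Cfp. The 250 bases before the gene start are shown for C1qa and C1r because both were high in L5 at 28 days. They are chr5:154419934-154420183 on the minus strand and chr4:159098763-159099012 on the plus strand of GRCr8, written 5′ to 3′ along the gene, with the matched motif in capitals.
C1qa: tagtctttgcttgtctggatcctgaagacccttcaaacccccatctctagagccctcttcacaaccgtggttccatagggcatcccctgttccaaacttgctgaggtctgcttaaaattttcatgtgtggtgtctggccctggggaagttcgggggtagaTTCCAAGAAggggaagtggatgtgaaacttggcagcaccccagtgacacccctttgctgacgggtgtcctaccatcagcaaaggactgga
C1r: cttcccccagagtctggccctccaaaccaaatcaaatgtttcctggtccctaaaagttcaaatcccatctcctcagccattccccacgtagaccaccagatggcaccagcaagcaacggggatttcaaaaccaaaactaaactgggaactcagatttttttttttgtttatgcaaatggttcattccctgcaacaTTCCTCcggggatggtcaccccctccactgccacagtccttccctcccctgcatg
The motifs searched, on both strands, were TTCNNNGAA of STAT factors, GAGGAA of the myeloid factor Spi1, the NF-kappaB motif, the motif of interferon regulatory factors, CCAAT and TATAAA. C1qa held TTCNNNGAA, starting 90 bases before the gene, a motif found in 7.67% of 33469 promoters of this length. C1r held GAGGAA on the opposite strand (TTCCTC), starting 55 bases before the gene, and Cfp held it at 76 and 60 bases before the gene, against 23.3% of promoters. The other motifs occur in 4.53% (NF-kappaB), 3.41% (interferon regulatory factors), 34.0% (CCAAT) and 12.9% (TATAAA) of promoters, and no match to any of these motifs was found in these windows of C4a, C6 and Cfi. A match describes the letters and is not a binding site.

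C4a, the partner of C2 in the classical pathway enzyme, had 181 and 166 in L5 at 28 days, against 179 and 124 in sham at 28 days, and these overlap (0.19). In L5 at 50 days there were 220.0 and 217, against 127 and 126 in sham (0.70), with the L5 arrays higher. L4 had 193 and 154 at 28 days and 105 and 139 at 50 days. The fitted difference of L5 from sham was 0.45 ± 0.23 (limma adjusted p = 0.359). A second C4a probe set (mean signal 17.9) was too dim to be tested. Rat C4a and C4b are close copies: probe sets annotated to both were left out, and whether the tested C4a probe set also reads C4b was not tested.

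Properdin, Cfp, had 81.1 and 78.9 in L5 at 28 days, against 93.8 and 63.0 in sham at 28 days, with no separation (0.05). In L5 at 50 days Cfp had 118 and 105, against 84.9 and 71.2 in sham (0.46). Factor I, Cfi, had 62.3 and 76.7 in L5 at 28 days, against 79.8 and 53.6 in sham at 28 days (0.06). At 50 days Cfi had 154 and 112 in L5, against 70.0 and 91.0 in sham (0.61). For both genes the L5 arrays overlapped sham at 28 days and lay above it at 50 days. L4 ganglia had 93.2 and 77.5 at 28 days and 62.3 and 103 at 50 days for Cfp, and 83.5 and 119.6 at 28 days and 64.3 and 72.1 at 50 days for Cfi.

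C6, a component of the membrane pore, had 52.5 and 55.0 in L5 at 28 days, against 47.5 and 31.4 in sham at 28 days (0.34). In L5 at 50 days C6 had 93.8 and 115, against 79.3 and 71.2 in sham (0.39). The L5 arrays were above the sham arrays at both days, and both pools were brighter at 50 days. L4 had 62.8 and 98.9 at 28 days, above L5 and sham, and 65.8 and 62.2 at 50 days, below both. The fitted L5 minus sham differences were 0.36 ± 0.31 for C6, 0.34 ± 0.31 for Cfi and 0.25 ± 0.29 for Cfp (limma adjusted p = 0.581, 0.603 and 0.681), and each of the 3 was below 0 with arrays scaled to their hybridisation controls. Cfi correlated with Cfp at r = 0.91 and with C6 at r = 0.88 over the 6 pools, both among the highest of the 66 pairs. The dim second probe sets of C6 and Cfp had mean signals of 8.59 and 9.42.

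C5ar1, the receptor for C5a on myeloid cells, was measured by 2 tested probe sets. On AB003042_at L5 had 157 and 174 at 28 days, against 137 and 98.0 in sham at 28 days (0.47). At 50 days L5 had 189.6 and 140.3 there, against 110.5 and 89.7 in sham (0.65), so the L5 arrays were higher at both days. L4 had 181 and 119 at 28 days and 115 and 135 at 50 days. On the brighter X95990exon_s_at the L5 arrays of 28 days had 76.3 and 182, on either side of the 157 and 144 in sham at 28 days (-0.31). At 50 days L5 had 230.2 and 241 there, against 164 and 122 in sham (0.69). L4 had 123 and 148 at 28 days and 188 and 202 at 50 days on this probe set. The fitted L5 minus sham differences were 0.56 ± 0.24 and 0.19 ± 0.27 (limma adjusted p = 0.260 and 0.740), and the pair correlated at r = 0.12 over the 6 pools. AB003042_at correlated with C2 at r = 0.95, the highest of the 66 pairs of tested probe sets. X95990exon_s_at correlated with C2 at r = 0.24.

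**Figure D2:**
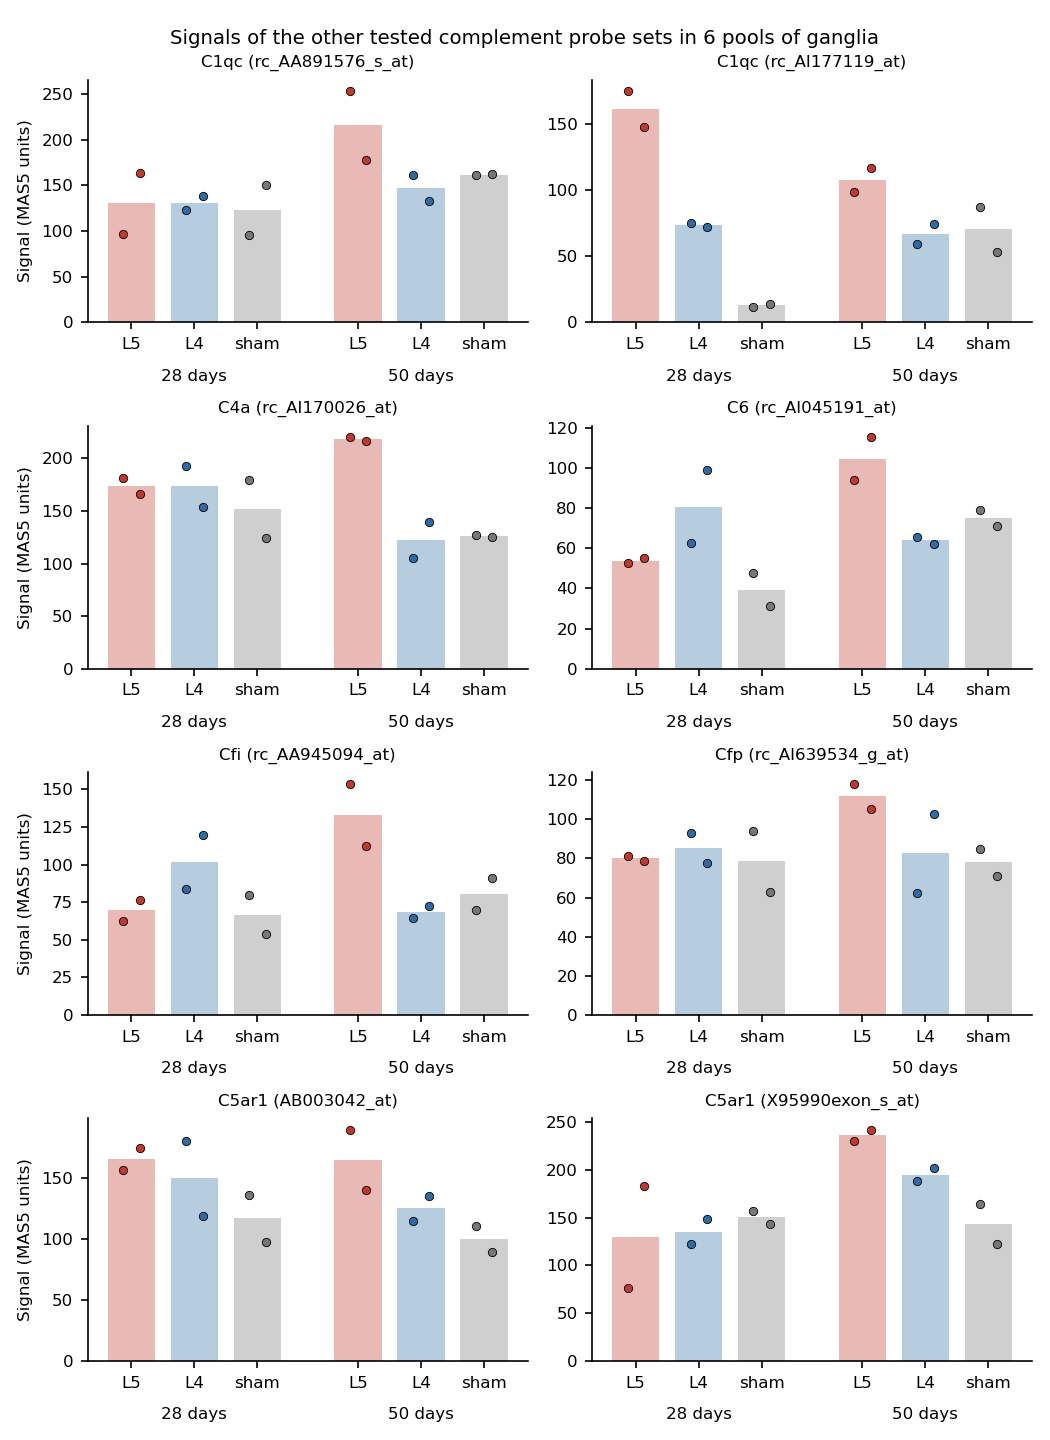
Signal of the other 8 tested complement probe sets in each pool (y axes, MAS5 units, linear from 0), by condition and day. Points are the 2 technical arrays and bars their mean. L5 at 50 days is the highest pool for 6 of the 8, rc_AI177119_at of C1qc stands highest in L5 at 28 days, and AB003042_at of C5ar1 is close to level in L5 at both days.

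The 12 tested probe sets held 1 call in L5 against sham, C2, where 0.763% of all 15721 probe sets passed. An unadjusted limma p under 0.05 was reached by 5 of the 12, against 16.9% of all probe sets. Of these 5, rc_AI177119_at of C1qc was tested only because it is bright in L5. It also enters the count and median that follow. The fitted difference was above 0 for 12 of 12, against 53.7% of all, and its median was 0.50, against 0.04. With arrays scaled to their hybridisation controls, C6, Cfi, Cfp, rc_AA891576_s_at of C1qc and X95990exon_s_at of C5ar1 were below 0. These counts are over probe sets that passed the brightness filter and do not stand for all 18. The members were chosen with earlier results of these data known, so the shares describe the list and do not test it.

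**Figure D3:**
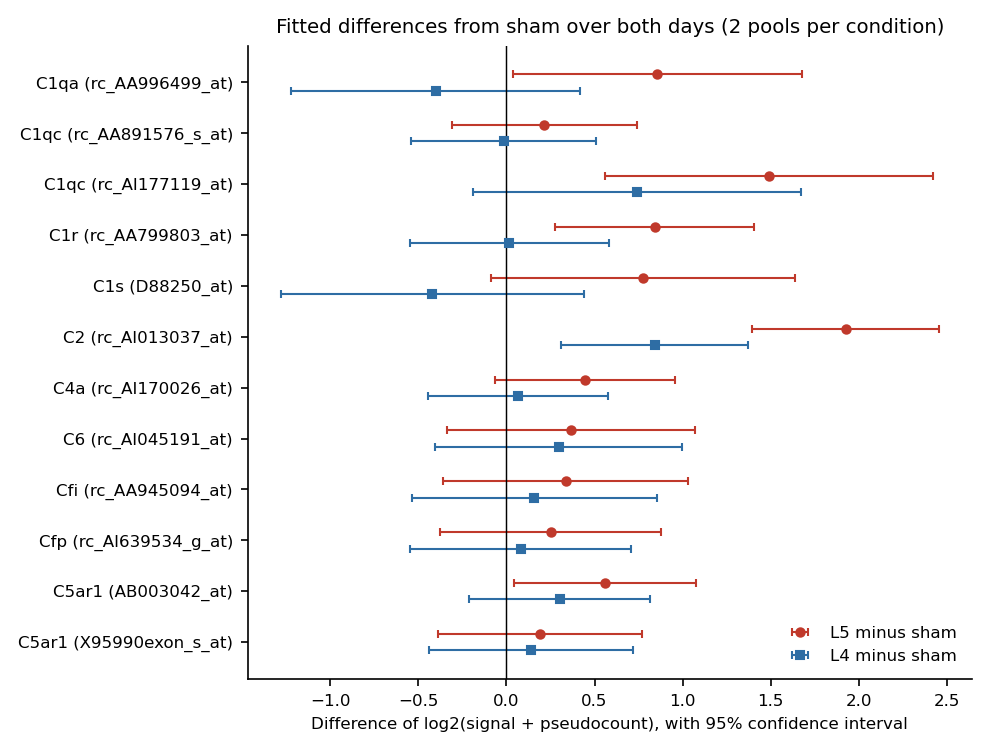
Fitted difference from sham over both days for L5 and L4 (x axis, log2(signal + pseudocount), with the 95% confidence interval of the limma fit) for each tested probe set (y axis). C2 lies farthest from 0 in L5 (1.92), and in L5 all 12 points lie above 0, of which 5 fall below it with arrays scaled to their hybridisation controls.

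Set day by day, the complement probe sets at least 1 higher in L5 were mostly those of C1 at 28 days and only that of C2 at 50 days. By sign alone, 11 of 12 were above sham at 28 days (51.3% of all) and 10 of 12 at 50 days (52.6% of all). At 28 days C1qa, rc_AI177119_at of C1qc, C1r, C1s and C2 were at least 1 higher than sham with the arrays apart, 5 of 12 against 2.79% of all probe sets, and 0 were at least 1 lower (2.34%). Of these 5, rc_AI177119_at is the one that was tested only because it is bright in L5. At 50 days C2 was the 1 of 12 past that size (3.29%), and 0 were lower (2.54%). Arrays of L5 lay above those of sham for 7 of 12 at 28 days (25.7% of all) and for 10 of 12 at 50 days (28.8% of all). The median difference was 0.40 at 28 days and 0.49 at 50 days, against 0.01 and 0.03 over all tested probe sets. Scaling to the hybridisation controls moved the median of all probe sets to -0.34 at 28 days and -0.55 at 50 days, and then the L5 arrays lay above sham for 5 of 12 at 28 days and 1 of 12 at 50 days. Relative to the median of all probe sets, the members' median was 0.39 at 28 days and 0.46 at 50 days, and with that scaling 0.43 and 0.47.

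Within L5 ganglia, C1s was lower at 50 than at 28 days by a difference of -2.51, C1r by -1.36 and C1qa by -1.34, each with the arrays apart. These were 3 of 12 at least 1 lower, against 4.94% of all probe sets, and 0 of 12 were at least 1 higher (5.45%). C2 was level (-0.03), and rc_AI177119_at of C1qc was lower by a difference of -0.50. The L5 arrays of 50 days lay above those of 28 days for 6 of 12 (31.9% of all) and below them for 4 of 12 (26.4%). The 6 higher at 50 days were X95990exon_s_at of C5ar1 (0.91), Cfi (0.78), C6 (0.77), rc_AA891576_s_at of C1qc (0.70), Cfp (0.42) and C4a (0.30). In sham, the same step was -0.90 for C1s, -0.38 for C1r and 0.49 for C1qa, and in L4 it was -0.28, -0.56 and -0.53. Of the probe sets named as higher in L5 at 50 days, the sham step was -0.08 for X95990exon_s_at, 0.23 for Cfi and 0.71 for C6. It was 0.39 for rc_AA891576_s_at, 0.01 for Cfp and -0.21 for C4a. The step of the L5 minus sham difference between the days (50 minus 28) was -1.83 for C1qa, -1.61 for C1s and -0.97 for C1r, and 0.21 for C2. For rc_AI177119_at of C1qc it was -1.93, where sham rose by 1.43 while L5 fell. With 1 pool per condition and day the step of the L5 minus sham difference has no test. Over the 3 conditions the day term of the limma fit called 0 of 12 (0.286% of all), and 2 of 12 had an unadjusted p under 0.05 (18.7% of all). Those 2 were C1s (-1.23 ± 0.32, limma adjusted p = 0.121) and C1r (-0.76 ± 0.21, limma adjusted p = 0.135).

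**Figure D4:**
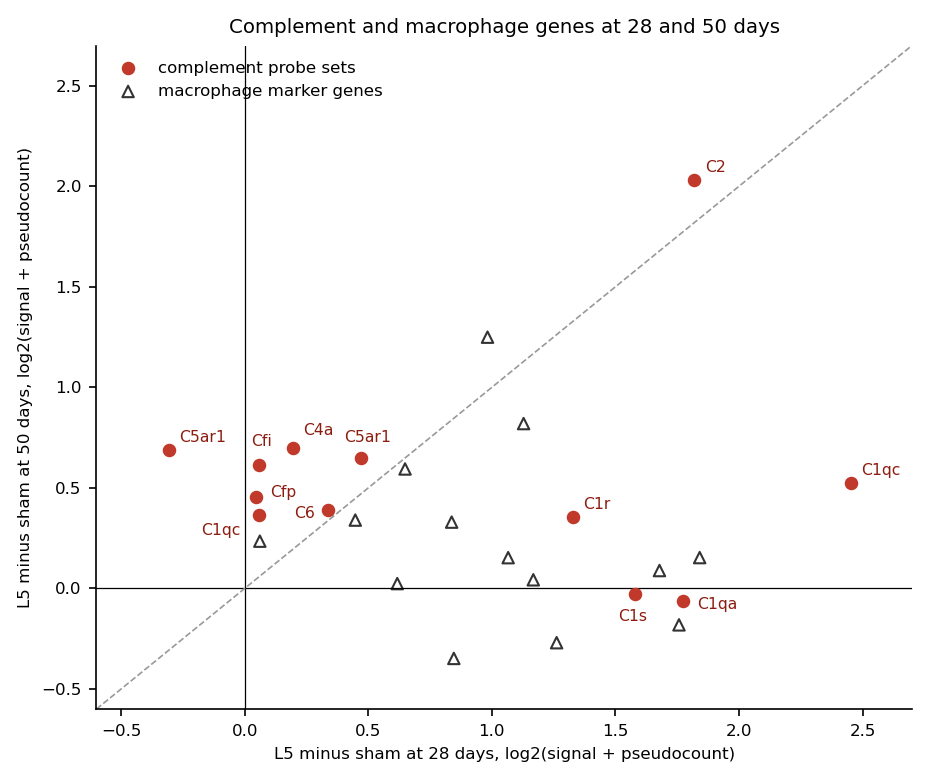
L5 minus sham at 28 days (x axis) against the same at 50 days (y axis), in log2(signal + pseudocount), for the 12 tested complement probe sets (filled circles) and 14 macrophage marker genes (open triangles). The dashed line marks equal differences: C2 lies at 1.82 and 2.03, C1qa, C1r, C1s and rc_AI177119_at of C1qc lie at 1.33 or more on the x axis and at 0.52 or less on the y axis, and the other circles lie at 0.47 or less on the x axis.

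In neighbouring L4 ganglia no member passed the test against sham, and C2 was above sham at both days (0.72 at 28 days and 0.96 at 50 days, arrays apart). In L4 against sham limma called 0 of 12 members, as it called 0% of all probe sets, and the lowest unadjusted p among members was that of C2 (0.84 ± 0.23, confidence interval 0.31 to 1.37, limma adjusted p = 1.00). C2 was the 1 of 12 with an unadjusted p under 0.05, against 2.72% of all. The median fitted difference was 0.11, against 0.00 over all. By size, rc_AI177119_at of C1qc was at least 1 higher in L4 than in sham at 28 days (1.51; 1.06% of all), where the sham pool was low. At 50 days 0 of 12 were at least 1 higher (1.01%). Below sham with the arrays apart, but by less than 1, stood C1s at 28 days (-0.73), 1 of 12 against 22.7% of all. At 50 days C1qa (-0.91) and C6 (-0.18) did so, 2 of 12 against 19.0% of all. L4 arrays lay above sham for 5 of 12 at 28 days (20.9% of all) and for 3 of 12 at 50 days (19.1% of all).

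In L5 ganglia at 28 days the arrays of 5 of 12 probe sets lay above those of L4 (29.3% of all). These were C1qa, C1r, C1s, C2 and rc_AI177119_at of C1qc, the last tested only because it is bright in L5. C6 and Cfi, 2 of 12, lay below L4 (26.4% of all). At 50 days 10 of 12 lay above L4, all but C1qa and C1s (28.2% of all). None of the members passed the test. limma called 0 of 12 members in L5 against L4 (1.26% of all), and 4 of 12 had an unadjusted p under 0.05 (19.4% of all). These were C1qa (1.26 ± 0.36), C1s (1.20 ± 0.40), C2 (1.08 ± 0.23) and C1r (0.83 ± 0.26), with limma adjusted p of 0.123, 0.143, 0.0690 and 0.127. By size, these 4 of 12 were at least 1 higher in L5 than in L4 at 28 days (3.26% of all) and C2, 1 of 12, at 50 days (3.99%). At 50 days C1s was level with L4 (0.08) and C1qa was above it by 0.85, both with the arrays overlapping. At 28 days rc_AA891576_s_at of C1qc was level with L4 (-0.04). The comparisons with sham and with L4 share the L5 pools.

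The third C1q chain, C1qb, is not among the 10 genes, and its brighter probe set had 269 and 206 in L5 at 28 days, against 33.5 and 14.6 in sham at 28 days (2.80). At 50 days C1qb had 18.1 and 18.7 in L5, against 14.3 and 11.9 in sham (0.27). Its fitted difference was 1.53 ± 0.63 (limma adjusted p = 0.249). C1qb was tested only because it is bright in L5: its mean over the L4 and sham arrays was 19.4, under the 39.3 that chip A required. Of a list of 34 other complement genes 26 were on the arrays and 9 had a tested brightest probe set, of which limma called 0 in L5 against sham. Their median L5 minus sham difference was 0.19 at 28 days and -0.27 at 50 days. After C1qb the largest fitted differences belonged to the regulators Cd55 (-0.55 ± 0.21), which dissociates C3-cleaving enzymes, Serping1 (0.48 ± 0.22), the inhibitor of C1r and C1s, and Clu (-0.39 ± 0.18), which binds forming pores, with limma adjusted p of 0.226, 0.306 and 0.301. Another probe set of Cd55 did pass (-1.56, limma adjusted p = 0.0157).

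Several marker lists also differed between the pools. Of 20 macrophage markers 18 were on the arrays and 14 were tested, and their summed signal was 5883 to 6273 in L5 at 28 days, against 2252 to 2364 in sham at 28 days. At 50 days it was 2211 to 2294 in L5, against 1907 to 2061 in sham, and in L4 it was 2151 to 2220 at 28 days and 1853 to 1880 at 50 days. All 14 were above sham in L5 at 28 days (median 1.02) and 11 of 14 at 50 days (median 0.15), limma called 0 of them, and Itgam was too dim to be tested (mean signal 14.3). The 6 fibroblast markers, all tested, summed to 29413 to 33479 in L5 at 28 days, against 19450 to 21186 in sham at 28 days, and 10967 to 13289 in L5 at 50 days, against 10337 to 11407 in sham at 50 days. In L4 they summed to 14434 to 14764 at 28 days and 10275 to 12765 at 50 days. The 13 tested of 16 skeletal muscle markers summed to 4434 to 4544 in L5 at 28 days, against 1357 to 1574 in sham at 28 days, and 2836 to 3007 in L5 at 50 days, against 2531 to 2689 in sham at 50 days. In L4 they summed to 2223 to 2415 at 28 days and 2340 to 2684 at 50 days, and limma called 1 of them, Tpm2, in L5 against sham (1.16 ± 0.21, limma adjusted p = 0.0469). The 4 tested blood markers summed to 10253 to 10615 in L5 at 28 days, against 7046 to 8267 in sham at 28 days, and to 3432 to 3526 in L5 at 50 days, against 4418 to 4631 in sham at 50 days. In L4 they summed to 8033 to 9009 at 28 days and 3410 to 3467 at 50 days, and 2 of them were called for the day. Hepatocyte and T cell sums stood farther above sham at 50 than at 28 days. The 5 tested of 6 hepatocyte markers summed to 453 to 508 in L5 at 28 days, against 446 to 448 in sham at 28 days, and to 574 to 606 in L5 at 50 days, against 416 to 471 in sham at 50 days (L4 401 to 408 at 28 days and 370 to 446 at 50 days). The 4 tested T cell markers summed to 328 to 474 in L5 at 28 days, against 345 to 381 in sham at 28 days, and to 663 to 733 in L5 at 50 days, against 391 to 393 in sham at 50 days (L4 275 to 300 at 28 days and 351 to 434 at 50 days). In L5 against sham limma called 0 fibroblast, blood, hepatocyte or T cell markers. The part of these cells in the complement values was not tested, and in pooled tissue more cells of a type and more RNA per cell cannot be told apart.

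The genes whose pool profile was most like the mean of C1qa and C1qc (brightest tested probe set of each) were Dcps (r = 0.986), RT1-Db1 (0.978), Rab13 (0.971), Syngr2 (0.955), Vamp5 (0.953) and Fam171a2 (0.946), over 6 pools. They were the top 6 of 3401 probe sets whose pools spanned at least 1 on the log2 scale, of which 24 had r of at least 0.9. RT1-Db1, a class II antigen presentation gene, differed from sham in L5 by 1.17 at 28 days and 0.19 at 50 days. The arrays of a pool disagreed for several of them in L5 at 50 days: 195 and 29.5 for Dcps, 133 and 25.5 for Vamp5, and 33.0 and 151 for Fam171a2. Their correlations use the means of these arrays. The profile they were matched to averages 2 probe sets that correlated at -0.09 with each other.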

How the data were processed

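The authors deposited 1 linear intensity signal per probe set, which per the submitters' processing notes came from MAS5 (version not given in the sources used here). The deposited intensity values already shared a level across arrays, with means of 149.98 to 150.37 after trimming 2% at each end. Arrays were scaled to 150 within a chip type and turned into log2(signal + pseudocount), a log2 scale that the deposited tables do not use. As pseudocount served the 20th percentile of the signals: 12.8 on chip A, 17.7 on B and 20.2 on C. Control probe sets and those with a mean below the 40th percentile on their chip were left out, leaving 15721. The 2 technical arrays of a pool were averaged. limma 3.58.1 in R 4.3.3 (lmFit, eBayes with an intensity trend) was fitted to the 6 pools with condition and day, leaving 2 residual degrees of freedom, with Benjamini-Hochberg adjustment across the 3 chip types at 0.05. Figures were drawn with matplotlib 3.10.9. With 1 pool per condition and day, the number of pools limits the precision, and no detection calls were used.

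A size call needed a difference of at least 1 between pool means and the 2 arrays of a pool both beyond those of the other. Members were named by all their probe sets; of the other complement genes the 4 with the largest fitted L5 minus sham difference were named, and for likeness the 6 highest correlations over 6 pools. Names were read from the annotation of the platforms: on A 7006 probe sets have 1 gene, 308 several and 1426 none, on B 5351, 38 and 3343, and on C 5821, 45 and 2864. The members and gene lists were chosen with earlier results of these data known. The code was tested on simulated data. No 2 arrays held identical values. Alternatives covered scaling, pseudocount, filter, arrays, blocks, variance prior, day term and each pool left out.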

Additional observations from a re-analysis of the deposited data

Results flagged for a closer look

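C1qa in L4 ganglia was above sham at 28 days (0.11 on the log2 scale) and below it at 50 days (-0.91), with the arrays of each pool on the stated side. C6 in L4 was above sham at 28 days (0.78) and below it at 50 days (-0.18). Between L5 and L4, C6 was lower in L5 at 28 days (-0.44) and higher at 50 days (0.58), and Cfi was likewise lower at 28 days (-0.44) and higher at 50 days (0.80). In these 4 comparisons the arrays of the pools did not overlap and the sign turned between the days. Over all probe sets, arrays of L4 lay above sham for 20.9% at 28 days and below it for 19.0% at 50 days. Arrays of L5 lay below L4 for 26.4% at 28 days and above it for 28.2% at 50 days. The share of all probe sets with such a turn was not counted. For C1qa the L4 arrays of 28 days, 110.7 and 114.6, lay just above the brighter sham array, 109.7. The difference between the days was not tested. The comparisons with sham at 28 days use the chip B array whose labels conflict.

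A probe set annotated to both Cfb and C2, outside the members and too dim to be tested, had 84.9 and 99.98 in L5 at 28 days, against 10.3 and 22.9 in sham at 28 days (1.87). At 50 days it had 24.4 and 20.1 in L5, against 20.3 and 21.0 in sham (0.07). A probe set annotated to both C4b and C4a had 312 and 235 in L5 at 28 days, against 128 and 90.2 in sham at 28 days (1.24); at 50 days it had 47.6 and 98.5 in L5, against 28.3 and 65.9 in sham (0.53), which overlap. Its fitted difference was 0.88 ± 0.47 (limma adjusted p = 0.365). Both probe sets are outside the members and were above sham at 28 days. A second tested probe set of C4b and C4a had 21.5 and 154 in L5 at 28 days, against 8.49 and 90.1 in sham at 28 days, which overlap (0.69), and stood at -0.40 at 50 days. Its fitted difference was 0.15 ± 0.43 (limma adjusted p = 0.884).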

How the results depend on the processing

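The call of C2 was lost with no filter on low values (adjusted p = 0.0504), without the intensity trend (0.0510) and without a day term (0.132), and the 60th percentile filter removed C2. In L5 against sham the members called (1) became 2 with hybridisation control scaling, 0 with no filter, the 60th percentile filter, only array 1, only array 2, no trend or no day term, 3 with the pool as a random block, 3 with a replicate block of array numbers, and 0 to 4 on leaving out a pool. Over all probe sets (120) these gave 41 (quantile normalization), 414 (median centring), 2906 (hybridisation controls), 15 (no filter), 0 and 2 (array 1, array 2), 1114 (random block), 979 (replicate block), 3 (no trend), 0 (no day term) and 12 to 623 (a pool left out). In L5 against L4 the members called (0) became 4 with either block and 0 to 3 with a pool left out. For the day they became 1 with hybridisation controls, 2 with either block and 0 to 2 with a pool left out. In L4 against sham they stayed 0 in 20 alternatives. Over all probe sets the alternatives ranged from 0 to 6710 in L5 against L4, 0 to 1028 for the day and 0 to 11 in L4 against sham. Those ranges are not split by setting, so the member counts in L5 against L4 and for the day have no matching share. The pairs behind the replicate block share only a number: deviations of same-numbered arrays correlated between -0.10 and 0.11. The block calls added C1r (adjusted p = 0.0382) and rc_AI177119_at of C1qc (0.0315). With the 60th percentile filter the size calls were 3 at 28 days and 0 at 50 days. The 28-day median (0.40) became 0.083 with hybridisation controls, 0.15 with array 1, 0.66 with array 2 and 0.21 with no filter. The 50-day median (0.49) became 0.35 (quantile), 0.33 (median centring), -0.077 (hybridisation controls), 0.56 and 0.37 (5th and 40th percentile pseudocount), 0.38 (no filter) and 0.41 (60th percentile filter). Signs reversed with hybridisation controls for rc_AA891576_s_at of C1qc (-0.26), C6 (-0.090), Cfi (-0.15), Cfp (-0.19) and X95990exon_s_at (-0.28), which also reversed with median centring (-0.00247) and array 1 (-0.24). With a pool left out C1s ran from -0.18 to 1.73, Cfi from -0.11 to 0.78 and X95990exon_s_at from -0.20 to 0.58. Causes were not tested, apart from the smaller or larger sets of probe sets and arrays that some alternatives use.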

Other observations

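C3, the protein on which the pathways converge, was named after its values were seen. Its brighter probe set was too dim to be tested and had 72.5 and 57.2 in L5 at 28 days, against 5.69 and 12.1 in sham at 28 days (1.85 on the log2 scale). At 50 days it had 35.1 and 61.1 in L5, against 8.39 and 9.48 in sham (1.45). L4 had 8.28 and 15.4 at 28 days and 7.88 and 28.0 at 50 days. The L5 arrays lay above the L4 and sham arrays at both days. The other C3 probe set had 3.10 and 9.29 in L5 at 28 days, against 13.2 and 7.10 in sham at 28 days, where the pools overlap.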
